A study of Mus musculus with 16 samples.

Results

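Basp1, Rasgrf2, Strip2 and Ctxn3 are 4 mouse genes picked from 55266 because the difference between Upf3b-KO and Ctrl was not the same in frontal cortex (FC) and cerebellum (Cere). The choice used the region by genotype interaction measured in these libraries, so the genotype and region values of the 4 genes are given as a description, without a test. The 4 genes have 12 transcripts among the 142435 of the deposited count matrices, and all 12 were kept. RNA was sequenced from both tissues of adult Upf3b-null mice (Upf3b-KO) and littermate controls (Ctrl), with 4 libraries per tissue and genotype and 16 in all. The construction of the null allele, the sex of the mice and their age beyond adulthood are not given in the sources used here, and the labels do not say which libraries of the tissues share a mouse.

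UPF3B is an adaptor of nonsense-mediated RNA decay (NMD). It connects UPF2 to the exon junction complex left on spliced mRNA, and NMD degrades transcripts whose stop codon is followed by such a complex. The 4 genes have different roles in neurons. Basp1 encodes a membrane-bound protein of growth cones and nerve endings, grouped with GAP43 and MARCKS as a growth-associated protein that binds calmodulin and membrane phosphoinositides. Rasgrf2 encodes a calcium-responsive exchange factor that loads Ras and Rac with GTP. Strip2 encodes a scaffold subunit of STRIPAK, a complex that joins a protein phosphatase to kinases. Ctxn3 encodes a cortexin, one of a family of small single-pass membrane proteins of neurons.

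Library depth ranged from 27660078 to 35238677 expected counts in 15 libraries, so that 3 counts corresponded to 0.0851 to 0.108 CPM (the standard depth-scaled count, with every library brought to the same total). Upf3b-KO library 1 of the cerebellum held 64981 counts, and 3 counts corresponded to 46.2 CPM there. That library was left out, which leaves 3 libraries in the Upf3b-KO cerebellum and 4 in each other group. Upf3b was at 3.77% of its Ctrl mean in the Upf3b-KO frontal cortex and at 3.25% in the Upf3b-KO cerebellum. Libraries of a group varied little, with a common biological coefficient of variation of 3.87% to 3.99%, and p-values here measure only that spread, which may be technical. Marker genes differed between genotypes as well: summed markers of choroid plexus were 119-fold higher in Upf3b-KO than in Ctrl frontal cortex and 58.0-fold higher in Upf3b-KO cerebellum. In bulk tissue, fewer cells of a type and less RNA per cell cannot be told apart.

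Basp1 was a frontal cortex gene in Ctrl mice, and its 2 regions lay far closer together in Upf3b-KO mice. The gene (ENSMUSG00000045763) lies on the minus strand of chromosome 15, from 25363350 to 25414981 in GRCm39. In frontal cortex its level was 169, 176, 165 and 169 CPM in the Ctrl libraries and 106, 109, 111 and 108 CPM in the Upf3b-KO libraries. The groups were apart, with Upf3b-KO the lower one, and the Upf3b-KO mean was 63.9% of the Ctrl mean. In cerebellum the level was 3.21, 2.88, 3.60 and 3.04 CPM in Ctrl and 42.3, 37.6 and 38.3 CPM in Upf3b-KO libraries 2, 3 and 4. The cerebellar groups were again apart, in the opposite order, with a mean 12.4-fold higher in Upf3b-KO. On the log2 scale of the fit, the difference between Upf3b-KO and Ctrl was -0.72 ± 0.02 (SE) in frontal cortex and 3.58 ± 0.08 in cerebellum. The excess of frontal cortex over cerebellum was 53.3-fold in Ctrl and 2.75-fold in Upf3b-KO. The order of mean levels was Ctrl frontal cortex, Upf3b-KO frontal cortex, Upf3b-KO cerebellum and Ctrl cerebellum, and no neighbouring groups in it overlapped.

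Rasgrf2 showed the cerebellar difference without a cortical one of similar size. The gene (ENSMUSG00000021708) lies on the minus strand of chromosome 13, from 92027891 to 92269375. In cerebellum its level was 2.84, 2.68, 3.04 and 2.42 CPM in Ctrl and 43.0, 42.5 and 45.4 CPM in Upf3b-KO, a mean 15.9-fold higher in Upf3b-KO. In frontal cortex it was 107.5, 105.2, 108.7 and 106.3 CPM in Ctrl and 123, 118, 113 and 117 CPM in Upf3b-KO. The cortical groups did not overlap in CPM, but they were close, with the Upf3b-KO mean at 110% of Ctrl. After TMM scaling, which adjusts for differences in the composition of the libraries, the cortical log2 difference was 0.06 ± 0.03 (SE), against 3.94 ± 0.07 in cerebellum. Levels in frontal cortex were 39.0-fold those in cerebellum in Ctrl and 2.70-fold in Upf3b-KO, ratios of a size similar to those of Basp1.

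Strip2 was a cerebellar gene in Ctrl mice and differed between genotypes in both tissues, in opposite directions. The gene (ENSMUSG00000039629) lies on the plus strand of chromosome 6, from 29916976 to 29959680. Its level in frontal cortex was 18.9, 20.8, 19.9 and 19.6 CPM in Ctrl and 84.6, 87.2, 82.2 and 84.9 CPM in Upf3b-KO. In cerebellum it was 381, 371, 375 and 370 CPM in Ctrl and 179, 183 and 182 CPM in Upf3b-KO. Every Upf3b-KO library lay above every Ctrl library in frontal cortex and below every Ctrl library in cerebellum. The fitted log2 differences were 2.02 ± 0.04 (SE) and -1.10 ± 0.02. The Ctrl cerebellum had 18.9-fold the level of the Ctrl frontal cortex, and the Upf3b-KO cerebellum had 2.14-fold the level of the Upf3b-KO frontal cortex.

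The promoters of Basp1, Rasgrf2 and Strip2 are shown because the RNA level of each gene in the cerebellum differed between genotypes. That of Ctxn3, which differed there too, is not shown here. The windows are RefSeq sequences of GRCm38.p6, a build earlier than that of the gene positions above, and run from 250 bases before to 50 bases after the annotated start. Basp1 is given from chr15:25413715-25414014 and Rasgrf2 from chr13:92131779-92132078, both on the minus strand, and Strip2 from chr6:29916763-29917062 on the plus strand. Capitals mark matches on either strand to 5 promoter motifs. The GC box was searched as GGGCGG and the CCAAT box by its name. The E-box was searched in its symmetric form, which is CACGTG. The core of the cAMP response element was searched as TGACGT. The TATA box, finally, was searched with the letters TATAAA.
Basp1: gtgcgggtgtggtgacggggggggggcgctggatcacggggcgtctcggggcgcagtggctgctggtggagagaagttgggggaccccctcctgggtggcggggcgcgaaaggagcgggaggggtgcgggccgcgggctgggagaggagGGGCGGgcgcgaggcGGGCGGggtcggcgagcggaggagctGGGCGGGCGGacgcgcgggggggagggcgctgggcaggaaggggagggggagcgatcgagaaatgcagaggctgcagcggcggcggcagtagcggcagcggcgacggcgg
Rasgrf2: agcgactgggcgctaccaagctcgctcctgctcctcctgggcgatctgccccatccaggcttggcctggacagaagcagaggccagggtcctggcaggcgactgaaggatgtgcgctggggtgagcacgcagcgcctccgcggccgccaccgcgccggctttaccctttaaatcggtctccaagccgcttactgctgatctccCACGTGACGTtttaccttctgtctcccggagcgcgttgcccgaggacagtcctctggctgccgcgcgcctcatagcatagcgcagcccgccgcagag
Strip2: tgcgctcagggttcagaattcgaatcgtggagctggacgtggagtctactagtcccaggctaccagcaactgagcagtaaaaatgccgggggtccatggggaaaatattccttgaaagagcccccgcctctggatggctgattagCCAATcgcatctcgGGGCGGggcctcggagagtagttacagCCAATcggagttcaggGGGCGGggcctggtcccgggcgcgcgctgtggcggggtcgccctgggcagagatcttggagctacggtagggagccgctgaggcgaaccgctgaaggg
The 3 windows shared no motif set. Basp1 held 4 GC boxes, of which 2 overlap, and Strip2 held 2, each preceded by a CCAAT box. Rasgrf2 held 1 E-box and 1 response element core, which overlap by their last and first bases, and no GC box. The GC box is present in 35.7% of 32851 RefSeq promoter windows of the same length, the CCAAT box in 37.4%, the E-box in 7.15%, the response element core in 7.51% and the TATA box in 13.6%, the last of these in none of the 3 windows. The GC content was 78% for Basp1, 66% for Rasgrf2 and 62% for Strip2, beside a median of 52.7% over all windows. These matches are a description of the letters and show no binding.

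Ctxn3 was a cerebellar gene in Ctrl mice and stood at a cortical level in the Upf3b-KO cerebellum. The gene (ENSMUSG00000069372) lies on the plus strand of chromosome 18, from 57600675 to 57611207 in GRCm39. In cerebellum its level was 104, 103, 103 and 99.5 CPM in Ctrl and 8.51, 9.76 and 9.19 CPM in Upf3b-KO, so the Upf3b-KO mean was 8.94% of the Ctrl mean. In frontal cortex it was 7.08, 9.06, 9.19 and 7.04 CPM in Ctrl and 6.49, 7.71, 8.14 and 7.31 CPM in Upf3b-KO. The cortical groups overlapped, and the Upf3b-KO cerebellum overlapped the Ctrl frontal cortex and lay just above the Upf3b-KO frontal cortex. The Ctrl cerebellum stood far above the other 3 groups. The fitted log2 difference was -3.53 ± 0.05 (SE) in cerebellum and -0.20 ± 0.11 in frontal cortex. The cerebellar excess was 12.7-fold in Ctrl and 1.24-fold in Upf3b-KO.

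**Figure D1:**
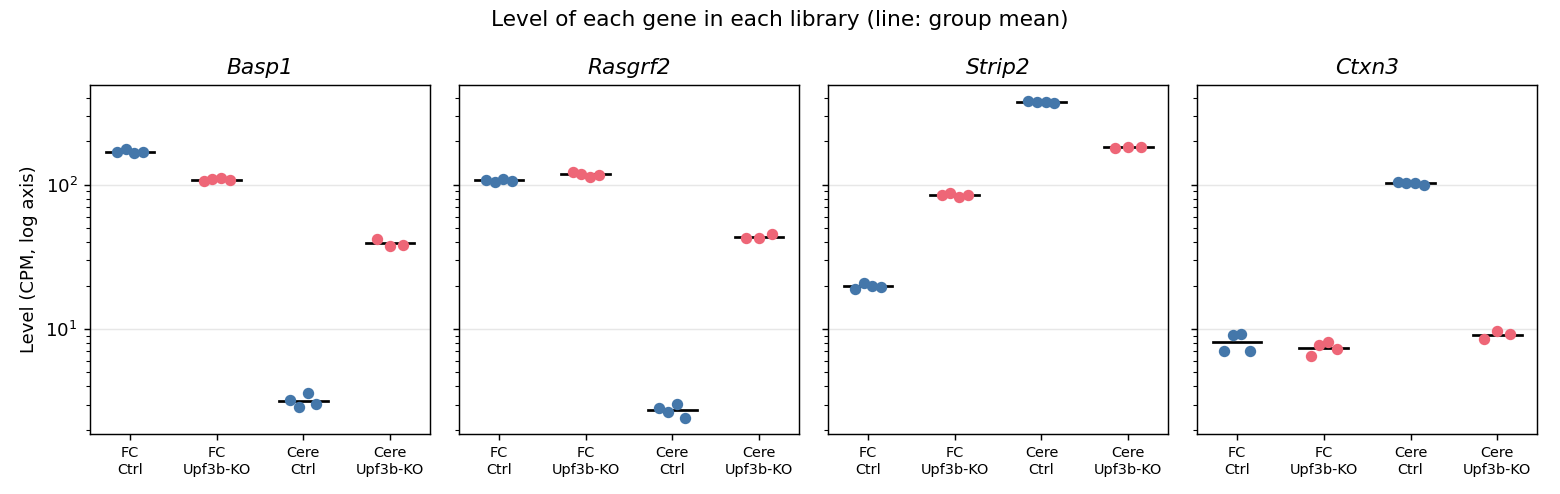
Level of Basp1, Rasgrf2, Strip2 and Ctxn3 (CPM, log axis) in each of the 15 deeper libraries, with Ctrl in blue, Upf3b-KO in red and a line at each group mean. Basp1 and Rasgrf2 are lowest in the Ctrl cerebellum, near 3 CPM, and Strip2 and Ctxn3 are highest there, at 374 and 102 CPM.

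The 4 genes formed pairs by region. In Ctrl mice Basp1 and Rasgrf2 were higher in frontal cortex, and Strip2 and Ctxn3 were higher in cerebellum. In each gene the ratio between the regions was nearer to 1 in Upf3b-KO than in Ctrl. The fitted interaction, the log2 difference of Upf3b-KO against Ctrl in cerebellum minus that in frontal cortex, was 4.29 ± 0.07 (SE) for Basp1, 3.86 ± 0.07 for Rasgrf2, -3.13 ± 0.04 for Strip2 and -3.33 ± 0.11 for Ctxn3. Among 19831 genes fitted, 6.36% were called with a positive interaction and 3.04% with a negative one, where a call is an adjusted p under 0.01 and a difference of more than 2-fold. By size in their own direction Basp1 was at rank 244, Rasgrf2 at 304, Strip2 at 200 and Ctxn3 at 169. Many genes had larger differences between the tissues than these 4. All 4 genes passed the filter on low counts in both tissues.

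Levels can be compared between genes only per length, as CPM per kilobase of annotated transcript. On that scale Strip2 and Ctxn3 were at nearly the same level in the Ctrl cerebellum, 70.5 ± 0.98 and 71.0 ± 0.91 CPM per kilobase (SD, n = 4). They were apart in the Upf3b-KO cerebellum, at 33.9 ± 0.36 and 6.37 ± 0.40 (SD, n = 3). Basp1, with 90.3 ± 2.4 CPM per kilobase in the Ctrl frontal cortex, was the most abundant of the 4 genes there, and Rasgrf2 stood at 11.1 ± 0.16 (SD, n = 4). In the Ctrl cerebellum Basp1 was at 1.70 ± 0.16 and Rasgrf2 at 0.286 ± 0.027 CPM per kilobase (SD, n = 4).

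Most of the RNA of Basp1, Rasgrf2 and Strip2 was assigned to 1 transcript per gene. Isoform share is the percentage of the expected counts of a gene that RSEM assigned to a transcript. Basp1-201 and Rasgrf2-201 each took over 99.9% of their gene on average in every group. Strip2-201 took 96.6% ± 2.0 in Ctrl and 96.0% ± 1.1 in Upf3b-KO frontal cortex, 93.0% ± 2.0 in Ctrl cerebellum (SD, n = 4) and 95.9% ± 0.28 in Upf3b-KO cerebellum (SD, n = 3). Strip2-205 has a coding sequence of 2448 nt in place of the 2532 nt of Strip2-201 and the same 3' UTR length. Its share was 0, 1.07, 0.408 and 0% in the Ctrl and 3.16, 1.37, 2.87 and 2.30% in the Upf3b-KO frontal cortex, so the cortical groups did not overlap. In cerebellum it was 3.85, 4.56, 6.86 and 1.88% in Ctrl and 2.20, 2.38 and 1.54% in Upf3b-KO, and the groups overlapped. Shares so small rest on few counts in the Ctrl frontal cortex, at most 7.34 in a library.

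Ctxn3 was divided between Ctxn3-201 and Ctxn3-203, which have the same coding length of 240 nt and the same 3' UTR length of 780 nt and differ before the coding sequence. Ctxn3-201 took 73.9, 75.7, 76.7 and 75.9% of the gene in the Ctrl cerebellum and 59.6, 69.5 and 48.9% in the Upf3b-KO cerebellum. All Upf3b-KO values were below all Ctrl values and were more spread, over fewer counts of the gene. In frontal cortex the share was 62.7, 68.5, 47.9 and 39.8% in Ctrl and 64.6, 44.0, 34.5 and 56.4% in Upf3b-KO, and these groups overlapped. Ctxn3-203 took the larger part of the remainder, with 21.7% ± 1.5 in Ctrl (SD, n = 4) and 39.3% ± 9.5 in Upf3b-KO cerebellum (SD, n = 3).

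Differences in share were tested by two-sided exact permutation tests over libraries, 15 in all for 5 transcripts and 3 contrasts. The share of Ctxn3-201 was 20.8 percentage points higher in Ctrl cerebellum than in Ctrl frontal cortex (exact permutation p = 0.0286, adjusted p = 0.143) while for Ctxn3-203 the difference was -17.8 points (exact permutation p = 0.0286, adjusted p = 0.143). Between genotypes in cerebellum the difference for Ctxn3-201 was -16.2 points and for Ctxn3-203 it was 17.6 points, each with an exact permutation p of 0.0571, the smallest that 4 against 3 libraries allow. The share of Strip2-201 was 90.5% to 95.4% in Ctrl and 95.7% to 96.2% in Upf3b-KO cerebellum, groups that did not overlap, with a difference of 2.97 points and the same exact permutation p of 0.0571. No share had an adjusted p under 0.05, which so few libraries could hardly give over 15 tests. The smallest unadjusted p that 4 against 4 libraries allow is 0.0286. The adjusted values therefore do not show that shares were equal.

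**Figure D2:**
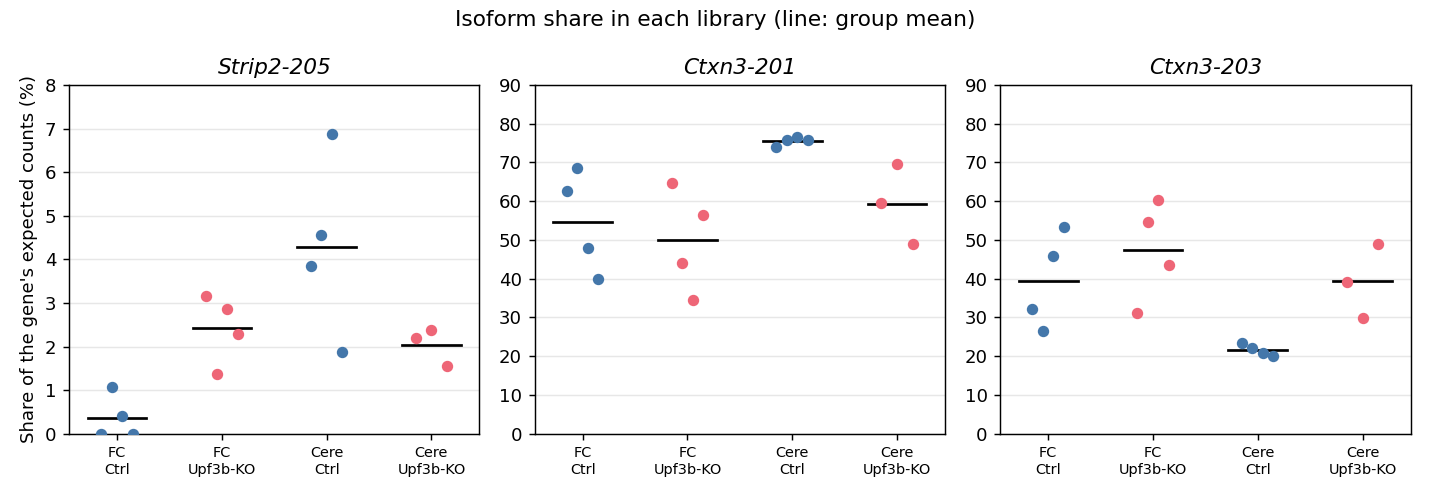
Share of the expected counts of its gene (%, y axis) taken by Strip2-205, Ctxn3-201 and Ctxn3-203 in each library of the 4 groups, with a line at each group mean. The 4 Ctrl cerebellum libraries lie close together for both Ctxn3 transcripts, between 73.9 and 76.7% for Ctxn3-201, and the other groups are spread more widely.

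The measured transcripts of the 4 genes were searched for the strongest NMD-inducing feature, a downstream exon junction (dEJ), here an exon junction at least 50 nt after the stop codon. Of the 12 transcripts, 8 had a complete annotated coding end, and 0 of 8 had a dEJ, a number too small to be set apart from the shares over all transcripts. A dEJ was present in 13.6% of 54450 such transcripts in the annotation and in 7.19% of the 24318 with a mean of at least 1 CPM. In Rasgrf2-201 the last junction lay before the stop codon (-93 nt from it), as it did in Strip2-201 (-251 nt), Basp1-201 (-690 nt) and Ctxn3-201 (-342 nt). A 3' UTR longer than 1500 nt, another feature linked to NMD, was present in 3 of the 8: Rasgrf2-201 with 4660 nt, and Strip2-201 and Strip2-205 with 2773 nt. It was present in 34.4% of the 54450 transcripts and in 48.1% of those with a mean of at least 1 CPM. Transcripts added to the annotation later than the matrices, such as 14 of the 17 now listed for Ctxn3, were not measured, and their junctions were not examined.

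Genes with related functions were read from 4 lists of 53 genes in all, chosen with earlier results of these data known. In frontal cortex 0 of 53 were called by edgeR's quasi-likelihood test and 0 by DESeq2, beside 9.16% of all 18218 genes tested called up and 1.06% called down. At an unadjusted p under 0.05, 44 of the 53 differed, 9 higher and 35 lower in Upf3b-KO, all by less than 2-fold, and the median log2 difference was -0.19 beside 0.00 over all genes. The share of all genes at this unadjusted cutoff was not counted. Counts at that cutoff, here and below, therefore cannot be read as a trait of the lists or of the neighbours. In cerebellum 6 of 53 rose and 0 fell, beside 10.3% called up and 2.86% called down of 17785, and at an unadjusted p under 0.05, 24 of the 53 were higher and 21 lower. The median of the lists was -0.01 there. For the interaction 4 of 53 were called, all positive, beside 6.36% of all genes called positive and 3.04% negative.

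In the growth-associated list around Basp1, 1 of 12 genes was called in cerebellum, beside 10.3% of all genes called up there. Dpysl3, a collapsin response mediator of axon growth, rose in cerebellum from 11.4 ± 1.1 (SD, n = 4) to 39.6 ± 0.54 CPM (SD, n = 3), a log2 change of 1.74 ± 0.06 (SE, edgeR adjusted p = 1.18e-14). Its interaction, the only one called in the list, was 2.03 (edgeR adjusted p = 1e-17). Gap43, the best known growth-associated gene, had log2 differences of -0.51 in frontal cortex and -0.13 in cerebellum. Marcks, with -0.38 and -0.04, and Marcksl1, with -0.48 and 0.34, also stayed under 2-fold. In frontal cortex 11 of the 12 genes were below 0, with a list median of -0.29 beside 0.00 over all genes. This lean was not particular to the list: 16 of 21 Ras and ERK genes and 13 of 18 STRIPAK genes were below 0 as well. In cerebellum 8 of 12 were above 0 (median 0.25), beside 26 of 53 over the 4 related lists. For the interaction 10 of 12 were above 0, with a median of 0.45 beside -0.01 over all genes, and 36 of 53 over the 4 lists.

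Among 21 genes of Ras regulation and the ERK kinase chain, 2 were called, both in cerebellum and both exchange factors of the Rasgrp family, beside 10.3% of all genes called up there. Rasgrp2 rose in cerebellum from 5.44 to 17.5 CPM (log2 change 1.63 ± 0.10 SE, edgeR adjusted p = 7.65e-11) and Rasgrp3 from 12.3 to 25.6 CPM (1.01 ± 0.06 SE, edgeR adjusted p = 4.32e-11). Rasgrp3 was just past the 2-fold limit and was no longer past it without Ctrl library 1 (log2 0.997) or without Upf3b-KO library 4 of the cerebellum (0.965). Their interactions were 0.70 and 0.69, under the 2-fold limit. The other Rasgrp genes of the list had lower means in the Upf3b-KO cerebellum and were not called. Rasgrp1 was at 75.3 and 52.8 CPM in Ctrl and Upf3b-KO, a log2 difference of -0.56 under the 2-fold limit, and Rasgrp4 at 0.377 and 0.215 CPM (edgeR adjusted p = 0.177). Rasgrf1, the closest relative of Rasgrf2, was at 486 and 376 CPM in the Ctrl and Upf3b-KO frontal cortex and at 327 and 412 CPM in cerebellum, log2 differences of -0.44 and 0.29. Hras and Nras were between -0.30 and 0.63 in both tissues. For the interaction 0 of the 21 were called by edgeR or by DESeq2, and 15 had an unadjusted p under 0.05.

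In the STRIPAK list 1 of 18 genes was called, Stk26, a kinase of the complex, in cerebellum and for the interaction, beside 10.3% of all genes called up in cerebellum and 6.36% called positive for the interaction. It rose in cerebellum from 0.478 ± 0.12 (SD, n = 4) to 2.66 ± 0.038 CPM (SD, n = 3), a log2 change of 2.41 ± 0.24 (SE, edgeR adjusted p = 4.68e-08), and was at 6.57 and 6.56 CPM in frontal cortex. Its direction was opposite to that of Strip2. The striatins Strn, Strn3 and Strn4 were between -0.67 and -0.08 in both tissues, and the phosphatase subunits of the list between -0.35 and 0.53.

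The other cortexins moved against Ctxn3 in cerebellum. Ctxn1 rose from 1.72 to 8.99 CPM (log2 change 2.33 ± 0.12 SE, edgeR adjusted p = 3.59e-12) and Ctxn2 from 3.13 to 12.6 CPM (1.96 ± 0.10 SE, edgeR adjusted p = 4.6e-12), with no overlap of the groups in either gene. In frontal cortex Ctxn1 was at 277 and 292 CPM and Ctxn2 at 11.2 and 10.9 CPM, and neither passed the test (edgeR adjusted p = 0.868 and 0.22). Their interactions were 2.31 (edgeR adjusted p = 5.35e-19) and 2.07 (edgeR adjusted p = 8.28e-13). As for Basp1 and Rasgrf2, the higher region in Ctrl mice was the frontal cortex.

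**Figure D3:**
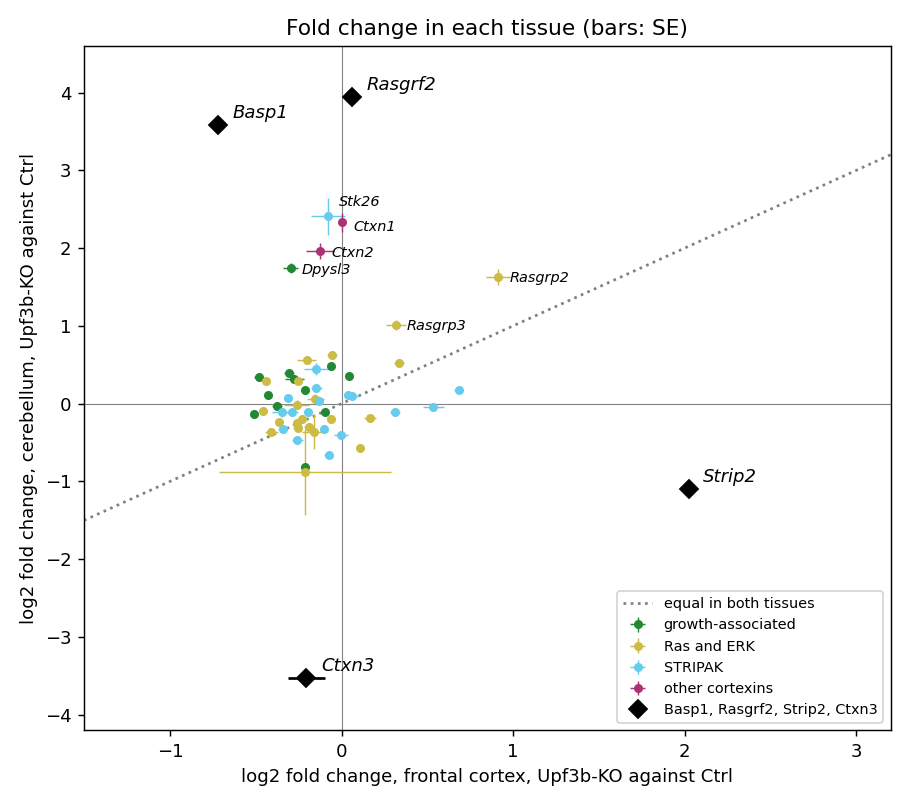
The log2 fold change of Upf3b-KO against Ctrl in frontal cortex (x axis) and cerebellum (y axis) for the 4 genes (black diamonds) and the 53 related genes, with SE bars and a dotted line where both tissues are equal. The related genes lie within 1 of 0 in frontal cortex, and 6 of them, labelled, lie above 1 in cerebellum.

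Of 24 neighbours, the 3 nearest tested genes on each side of each of the 4, 3 rose and 0 fell in frontal cortex and 4 rose and 0 fell in cerebellum (21 tested), by edgeR and in the same numbers by DESeq2, beside 9.16% and 10.3% of all genes called up and 1.06% and 2.86% called down. At an unadjusted p under 0.05, 6 neighbours were lower in each tissue. For the interaction 3 were called positive and 1 negative, beside 6.36% and 3.04% of all genes. None of the 6 neighbours of Rasgrf2 was called in any comparison by edgeR or DESeq2, with 4 of 6 at an unadjusted p under 0.05 in frontal cortex, 1 in cerebellum and 3 for the interaction. Ahcyl2, whose end lies 4.67 kb from Strip2, had log2 differences of 0.06 in frontal cortex and 0.01 in cerebellum. Smkr-ps, 33.3 kb on the other side of Strip2, rose in both tissues, from 0.247 to 2.19 CPM in frontal cortex (edgeR adjusted p = 6.48e-07) and from 0.106 to 0.444 CPM in cerebellum (edgeR adjusted p = 0.00303). The cerebellar call of Smkr-ps was lost without Upf3b-KO library 2 (edgeR adjusted p = 0.0191) or library 3 (edgeR adjusted p = 0.011).

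The neighbours of Basp1 and Ctxn3 included weakly expressed genes whose annotated spans overlap theirs. Gm5468 (ENSMUSG00000115729), a long noncoding gene on the opposite strand of the upstream end of Basp1, was at 3.02 and 2.70 CPM in Ctrl and Upf3b-KO frontal cortex and at 0.0218 and 0.335 CPM in cerebellum, with a positive interaction (edgeR adjusted p = 5.28e-06). A second gene of that symbol (ENSMUSG00000056089) was at 0.211 and 0.390 CPM in frontal cortex and at 0 and 0.0520 CPM in cerebellum, and its interaction was not called (edgeR adjusted p = 0.107). Gm2824, a noncoding gene 336 kb from Basp1, was at 7.93 and 4.78 CPM in frontal cortex and at 0.0164 and 0.676 CPM in cerebellum, the same order of groups as Basp1 (interaction, edgeR adjusted p = 4.73e-10). 4930511M06Rik spans Ctxn3 on the opposite strand and rose in frontal cortex from 0.0740 to 0.517 CPM (edgeR adjusted p = 0.000551). Whether the counting used the strand was not stated, so reads from overlapping transcripts cannot be told apart. The measured Basp1 transcripts reach up to 25413859 and 25413784, short of the Gm5468 genes, which start at 25413946 and 25414242. The overlap of Basp1 with them thus rests on annotated transcripts that were not measured. The part of shared reads in the Ctxn3 values was not tested. Ccdc192 rose in frontal cortex from 0.389 to 1.74 CPM (edgeR adjusted p = 4.17e-06), with 0.810 and 0.330 CPM in cerebellum and a negative interaction (edgeR adjusted p = 9.02e-05). In cerebellum Gm19500 rose from 1.84 to 5.26 CPM (edgeR adjusted p = 4.91e-08) and Fbn2, a fibrillin of the extracellular matrix, from 0.175 to 1.22 CPM (edgeR adjusted p = 2.49e-05), while Ctxn3 between them was lower.

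The genes most like each of the 4 over the 15 libraries were found by Pearson's r of log2(CPM + 1), among genes averaging at least 5 CPM. The libraries fall into 4 groups, so r mainly describes the order and spacing of group levels. The 5 nearest to Basp1 were Cdk14, Pak3, Sst, Crhbp and Tubb5, with r from 0.9982 to 0.9987. Sst, the somatostatin of a class of interneurons, was at 182 and 122 CPM in Ctrl and Upf3b-KO frontal cortex and at 0.971 and 38.2 CPM in cerebellum, values of the size of those of Basp1. Crhbp, which binds corticotropin-releasing hormone, was at 32.1, 20.5, 0.0165 and 6.56 CPM in the same groups. The 5 nearest to Rasgrf2 were Olfm2, Scn3a, Iqsec3, Arhgef4 and Pcdh7, of which Scn3a, a voltage-gated sodium channel, was at 48.9 and 50.02 CPM in frontal cortex and 1.19 and 20.1 CPM in cerebellum.

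For Strip2 the nearest were Dixdc1, Sema7a, Dnah6, Tbc1d9 and Gpr158, with r from 0.9937 to 0.9964. Dnah6, an axonemal dynein heavy chain, came closest in size, at 1.77 and 6.85 CPM in frontal cortex and 18.6 and 11.2 CPM in cerebellum. For Ctxn3 they were Ywhah, Ddx5, Hp1bp3, Cd47 and Nptx1, with r from 0.9941 to 0.9964. All 5 had smaller differences than Ctxn3: Nptx1, a neuronal pentraxin of synapses, was at 526 and 524 CPM in frontal cortex and 995 and 516 CPM in cerebellum, a log2 difference of -0.996 in cerebellum beside the -3.53 of Ctxn3.

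Markers of cell types and neighbouring brain regions moved with the genotype in the same libraries as the 4 genes. In cerebellum the summed granule cell markers were 3531 to 3559 CPM in Ctrl and 1840 to 1848 CPM in Upf3b-KO, 52.0% of Ctrl. In this list 4 of 6 fell, beside 2.86% of all genes called down in cerebellum, among them Neurod1 from 556 to 255 CPM (edgeR adjusted p = 2.11e-20). The summed Purkinje cell markers were 10514 to 10655 CPM in Ctrl and 4176 to 4191 CPM in Upf3b-KO, 39.5% of Ctrl, and 5 of 5 fell beside the same 2.86%, among them Car8 from 3198 to 1115 CPM (edgeR adjusted p = 4.73e-25). Strip2 stood at 48.4% of Ctrl in the same libraries and Ctxn3 at 8.94%, so Ctxn3 was lower than either sum. The part of the marker differences in those of Strip2 and Ctxn3 was not tested.

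Basp1 and Rasgrf2 were higher in the cerebellar libraries in which markers of brainstem and midbrain neurons were higher. The summed list was 74.8 to 78.9 CPM in Ctrl and 446 to 452 CPM in Upf3b-KO, and 6 of 8 genes rose, beside 10.3% of all genes called up in cerebellum. Of the other two, Th was at 12.0 CPM in Ctrl and 16.8 CPM in Upf3b-KO, a log2 difference of 0.44, and Tcf7l2 at 19.4 and 14.5 CPM, one of -0.47, both under the 2-fold limit. Slc17a6, the vesicular glutamate transporter of many subcortical neurons, rose from 9.36 to 156 CPM (edgeR adjusted p = 3.18e-23), and Glra1, a glycine receptor subunit, from 0.684 to 47.0 CPM (edgeR adjusted p = 4.48e-20). Hoxb5, a gene of hindbrain and spinal identity, was at 0.0418 CPM in Ctrl and 28.1 CPM in Upf3b-KO cerebellum and at 0 to 0.0595 CPM in every library of the frontal cortex. Markers of cortical projection neurons, at 28.9 to 32.9 CPM in Ctrl and 25.2 to 28.3 CPM in Upf3b-KO cerebellum, were 86.8% of Ctrl. Neurod6, at 11.5 and 6.98 CPM in Ctrl and Upf3b-KO, and Cux2, at 18.7 and 19.0 CPM, made most of that sum. Emx1 was at 0 and 0.0382 CPM and Fezf2 at 0.0364 and 0 CPM, near 0 in both genotypes. Among interneuron markers 2 of 4 rose, Sst and Vip, beside the same 10.3%, and the other two had lower means in Upf3b-KO and were not called. Npy was at 20.2 and 11.5 CPM in Ctrl and Upf3b-KO cerebellum, a log2 difference of -0.86 (edgeR adjusted p = 8.77e-09) under the 2-fold limit, and Lhx6 at 0.318 and 0.118 CPM (edgeR adjusted p = 0.04). The summed list was 19.9 to 23.9 CPM in Ctrl and 53.4 to 55.1 CPM in Upf3b-KO, of which Sst made 0.971 and 38.2 CPM on average. The part of these lists in the levels of Basp1 and Rasgrf2 was not tested.

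In frontal cortex, where Strip2 was at 428% of Ctrl, all 8 markers of striatal medium spiny neurons rose. Their sum was 186 to 201 CPM in Ctrl and 918 to 931 CPM in Upf3b-KO, 473% of Ctrl. Penk, which encodes proenkephalin, rose from 37.3 to 249.9 CPM (edgeR adjusted p = 3.3e-25), Ppp1r1b, which encodes the dopamine-regulated phosphatase inhibitor DARPP-32, from 67.6 to 298 CPM (edgeR adjusted p = 3.8e-25), and Pde10a, a striatal phosphodiesterase, from 43.6 to 170.9 CPM (edgeR adjusted p = 1.58e-22). These calls stand beside 9.16% of all genes called up in frontal cortex. In cerebellum the striatal sum was 91.4% of Ctrl, with 2 of 8 genes called up beside 10.3% of all genes. Ppp1r1b alone was lower there, at 243 CPM in Ctrl and 127 CPM in Upf3b-KO, whereas 7 of 8 genes were above 0, with a median log2 difference of 0.53, and the mean of log2(CPM + 1) over the list was higher in Upf3b-KO by 0.61. The choroid plexus list rose in 6 of 6 genes in both tissues, from 17.6 to 18.7 CPM in Ctrl to 2134 to 2188 CPM in Upf3b-KO frontal cortex and from 22.0 to 25.4 CPM to 1365 to 1387 CPM in cerebellum. Their part in the Strip2 difference was not tested.

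Oligodendrocyte markers were 132% of Ctrl in frontal cortex, where 0 of 4 were called by edgeR, all 4 being higher by under 2-fold, and 225% of Ctrl in cerebellum, where 4 of 4 rose. Of all genes, 9.16% were called up and 1.06% down in frontal cortex, and 10.3% up and 2.86% down in cerebellum. Astrocyte markers were 80.7% of Ctrl in frontal cortex, with 0 of 5 called, and 97.1% in cerebellum, where 1 of 5 fell, Gdf10 of Bergmann glia. Gfap and Slc1a2 had cerebellar log2 differences of 0.41 and 0.36, under the 2-fold limit, so the sum joins members above and below 0. In frontal cortex, where Basp1 was at 63.9% of Ctrl, cortical projection markers were at 86.8% of Ctrl and interneuron markers at 82.3%, with 1 of 6 and 0 of 4 called down. Their part in the Basp1 difference was not tested.

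**Figure D4:**
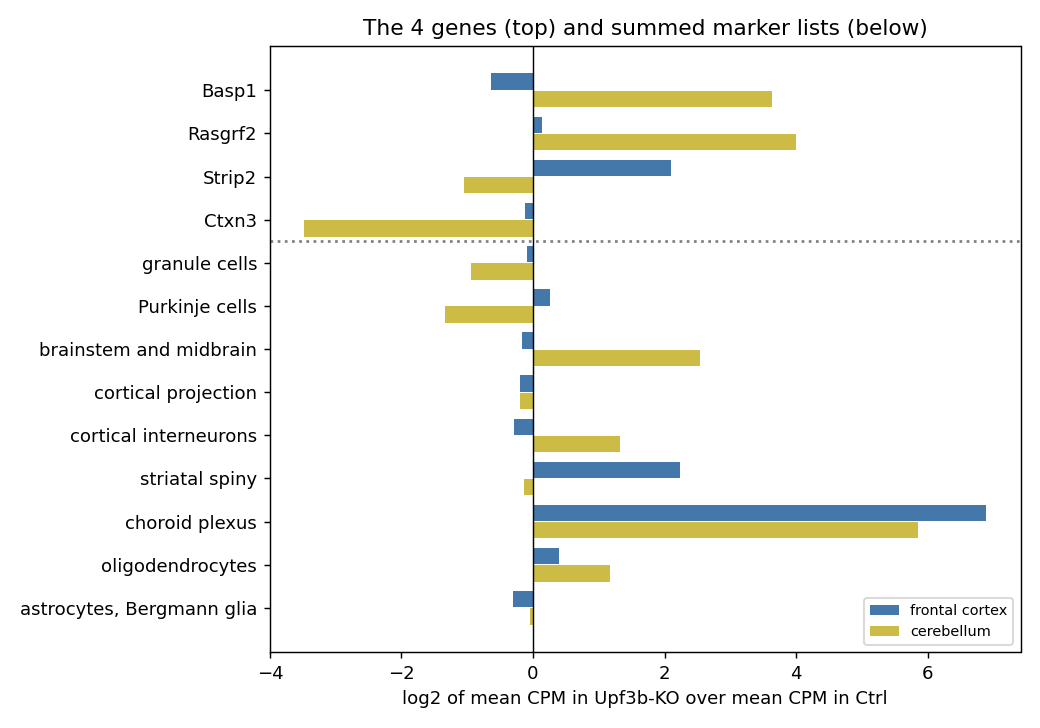
The log2 ratio of the mean CPM in Upf3b-KO to that in Ctrl (x axis) in frontal cortex (blue) and cerebellum (yellow) for the 4 genes and, under the dotted line, for the sum of each of the 9 marker lists. Granule and Purkinje cell lists are below 0 in cerebellum with Strip2 and Ctxn3, the brainstem and midbrain list is above 0 there with Basp1 and Rasgrf2, and the striatal list is above 0 in frontal cortex with Strip2.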

How the data were processed

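Groups of the 16 libraries were taken from the sample labels. The study names adult Upf3b-null mice and littermate Ctrl mice, 4 of each. Ribosomal RNA was depleted and SMART-Seq libraries were read in pairs. Per the labels, the authors aligned reads to GRCm39 (STAR 2.5.2b) and ran RSEM, and they deposited its expected counts for each Ensembl transcript, not scaled for depth or length. RSEM divides reads that match several transcripts by a model, which affects isoform shares most. Its version and any use of strand are not given in the sources used here.

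Identifiers were matched to GENCODE vM39 (141102 of 142435 transcripts, with 0.582% to 0.699% of counts left unmatched), and counts were summed per gene. Rounded counts were fitted in R 4.3.3 with edgeR 4.0.16 after filterByExpr (minimum count 10, minimum total 15) and TMM scaling, using 8 libraries of frontal cortex, 7 of cerebellum and 15 for the interaction. Quasi-likelihood p-values were adjusted by Benjamini-Hochberg over all genes. Calls needed an adjusted p below 0.01 together with more than a 2-fold difference. The SE is the absolute log2 fold change over the square root of F. The fits were tested on simulated data.

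The 4 genes, the gene lists and the tests were chosen with earlier results of these data known. Named were transcripts with a mean share of at least 5% or at least 1 CPM in a group, the related genes Gap43, Marcks, Marcksl1, Rasgrf1, Ctxn1 and Ctxn2, other related genes and neighbours that were called, the 5 genes most like each gene, and up to 3 called markers per list. Hoxb5, Emx1, Neurod6, Cux2, Gfap, Slc1a2, Npy, Lhx6, Th, Tcf7l2, Rasgrp1, Rasgrp4, Hras, Nras, the striatins and Ahcyl2 were chosen after their values were seen. Some related genes are not reported here by name.

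Libraries of a group, the shallow one aside, differed by 2.74 to 3.89 times the counting noise (chi-square per gene). Alternatives were DESeq2 1.42.0, median-of-ratios scaling, no filter, a replicate block, the shallow library included, each library left out, shares per length, another summary of marker lists and other measures of likeness. Floors of 3 counts describe counting error alone, as the reads carry no molecular identifiers.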

Additional observations from a re-analysis of the deposited data

Results flagged for a closer look

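In the groups of 4 libraries, 54 sets of values were examined for a library far from the others and 3 were found. Some sets had no spread and could give none, so this number cannot be set against a chance rate. The Basp1-201 share of 1 Ctrl library of the frontal cortex was 99.9646% and that of 1 Upf3b-KO library was 99.9708%, where every other library was at 100%. The summed choroid plexus markers of 1 Upf3b-KO library of the frontal cortex were 2188 CPM, the highest of its group.

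Upf3b-KO and Ctrl libraries of Basp1 and Strip2 were apart in opposite directions in the 2 tissues, with a log2 difference between the tissues of 4.29 for Basp1 and -3.13 for Strip2. These genes were picked for that difference, so it was not tested. By edgeR's interaction test, the tissues differed for Dpysl3 (2.03, adjusted p = 1e-17), Stk26 (2.47, adjusted p = 2.1e-10), Ctxn1 (2.31, adjusted p = 5.35e-19) and Ctxn2 (2.07, adjusted p = 8.28e-13) among the related genes. Among the neighbours they differed for Gm2824 (5.86, adjusted p = 4.73e-10), Gm5468 (ENSMUSG00000115729, 3.78, adjusted p = 5.28e-06), Ccdc192 (-3.39, adjusted p = 9.02e-05) and Fbn2 (1.88, adjusted p = 0.00158). The fitted values of Gm2824 and Gm5468 depend on the prior count, since their Ctrl cerebellum was near 0.

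The shallow Upf3b-KO library 1 of the cerebellum, used in no comparison above, held 5 counts of Basp1 (76.9 CPM) and 6 of Rasgrf2 (92.3 CPM). Both were above the 46.2 CPM that 3 counts correspond to and above every Ctrl cerebellum library.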

How the results depend on the processing

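The log2 differences of the 4 genes in each tissue and their interactions stayed within the spread between libraries under every alternative run, and the related genes called stayed at 0 in frontal cortex, 5 or 6 in cerebellum and 4 for the interaction. Without the filter on low counts, 295 genes were called down in frontal cortex in place of 193. With the shallow library, 2 neighbours were called in cerebellum in place of 4, since Gm2824 and Smkr-ps were no longer tested. With shares per length, the difference of the Basp1-201 share between the Ctrl tissues was 0.046 points, and that of Rasgrf2-201 between genotypes was -0.082 points in frontal cortex and -0.11 in cerebellum. The lists of most alike genes depended on the measure: by Spearman's rho, 1 of 5 remained for Basp1, 0 for Rasgrf2, 1 for Strip2 and 0 for Ctxn3, and with a pseudocount of 0.1, 3 remained for Basp1. With single libraries left out, 3 to 5 remained for Ctxn3. Called single genes kept their direction in every alternative. Rasgrp3 in cerebellum was at 0.995 with the replicate block, just under the 2-fold limit, and Smkr-ps there had an edgeR adjusted p of 0.0215. Fbn2 in frontal cortex was called without Ctrl library 4 (log2 1.11, edgeR adjusted p = 0.000174), and Ccdc192 in cerebellum without Upf3b-KO library 4 (-3.09, edgeR adjusted p = 0.000247) or without the filter (-1.31, edgeR adjusted p = 0.00681).

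With the shallow library, the log2 ratio of Upf3b-KO to Ctrl of the summed markers in cerebellum was -0.99 for granule cells, -1.39 for Purkinje cells, 2.45 for brainstem and midbrain, 1.56 for cortical interneurons, -0.19 for striatal neurons and 0.037 for astrocytes. With the mean of log2(CPM + 1) over each list in place of the sum, the difference in frontal cortex was 0.11 for granule cells, 0.17 for Purkinje cells, -0.069 for brainstem and midbrain, -0.12 for cortical projection neurons, -0.18 for cortical interneurons, 4.89 for choroid plexus, 0.50 for oligodendrocytes and -0.29 for astrocytes. In cerebellum it was -0.999, -1.39 and 1.41 for granule cells, Purkinje cells and cortical interneurons, -0.088 for cortical projection neurons, 0.61 for striatal neurons, 4.43 for choroid plexus, 1.20 for oligodendrocytes and -0.16 for astrocytes. The granule cell list in frontal cortex and the striatal list in cerebellum thus differ in sign between the sum and the mean, and the astrocyte list in cerebellum between the fits with and without the shallow library. The cause was not tested.

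With the replicate block, 1652 and 185 genes were called up and down in frontal cortex, 1732 and 448 in cerebellum, and 1149 and 522 for the interaction, where the block was the genotype and number. Libraries of the same number deviated together only weakly, with correlations from -0.129 to 0.197 over the pairs of tissues and of genotypes, so the numbers were not taken to pair the libraries. Depth limits the shares of Strip2-205 in Ctrl frontal cortex and of Ctxn3 in frontal cortex and Upf3b-KO cerebellum, and the shallow library shows nothing under 46.2 CPM.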

Other observations

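The shallow Upf3b-KO library of the cerebellum held 11 counts of Strip2 (169 CPM) and 0 of Ctxn3, which allows a level of up to 46.2 CPM of Ctxn3. It had no value for the isoform shares of Ctxn3.

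Strip2 had 2 transcripts annotated as retained introns, Strip2-203 and Strip2-204, neither with a coding end. Strip2-204 was at 0.0443 ± 0.057 CPM in Ctrl and 0.548 ± 0.17 CPM in Upf3b-KO frontal cortex, and at 5.18 ± 0.52 CPM in Ctrl (SD, n = 4) and 1.65 ± 0.36 CPM in Upf3b-KO cerebellum (SD, n = 3), the same order of groups as Strip2-201. The third Ctxn3 transcript, whose coding end is incomplete, was at 2.85 ± 0.83 CPM in Ctrl (SD, n = 4) and 0.123 ± 0.078 CPM in Upf3b-KO cerebellum (SD, n = 3).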
